A study of Mus musculus with 12 samples.

Results

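The effect of deleting the glucocorticoid receptor (GR) on the crypt cells that are not Paneth cells was read from 6 RNA-seq libraries out of 12 in the series. The comparison set 3 libraries of GRKO non-Paneth cells against 3 of WT non-Paneth cells, and the members were chosen by the genotype and the sort named in the sample titles and in the headers of the count columns. The remaining 6 libraries, Paneth cells of the same 2 genotypes, are used only to ask where the non-Paneth response differed. The mice were C57BL/6J and naive, so no group had received a treatment. The cells were epithelial cells of small intestinal crypts, sorted into Paneth cells and non-Paneth cells, and the labels name the mutant line GRvillinKO. The villin gene is active along the whole intestinal epithelium, so a deletion driven from its promoter reaches Paneth and non-Paneth cells alike and is not specific to either sort. The WT mice are described only as GR wild type, and neither the sex nor the age of the mice behind each library is given in the labels. The genotype field of the labels goes against the titles, since it lists every Paneth library as wild type and every non-Paneth library as mutant. Nr3c1, the gene of the receptor, followed the titles.

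GR is a ligand-activated transcription factor that binds glucocorticoids such as corticosterone, enters the nucleus and raises or lowers the transcription of its target genes, many of which act in metabolism and in the restraint of inflammation. In the small intestine, the crypt holds the stem cells and the dividing progenitors, which give rise to absorptive enterocytes and to the secretory goblet, Paneth, enteroendocrine and tuft cells. A non-Paneth sort of crypt cells is therefore a mixture, and a gene measured in it can change because cells of a type became more or less frequent or because each cell made more or less of its RNA. These cannot be told apart in bulk libraries.

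The 3 WT non-Paneth libraries held 12890785 to 15369985 counts and the 3 GRKO libraries 14713820 to 15910292. Levels are given as CPM (a library's count of a gene divided by its total and scaled to a common depth) after scaling the libraries by the trimmed mean of M values (TMM), in the order of replicates 1, 2 and 3. Fold changes are log2 of GRKO over WT with their standard error, from edgeR's quasi-likelihood test on the counts of 13057 genes, and adjusted p-values are Benjamini-Hochberg values over all of them, with a threshold of 5%. Replicates are known by number only, so p-values measure the spread between these samples, which may in part be technical. The libraries of the 2 genotypes also differed as wholes: mitochondrial genes took 6.01% to 6.81% of the counts in WT and 2.85% to 3.04% in GRKO, and the 10 most abundant genes 8.85% to 9.75% and 6.23% to 6.44%. WT replicate 2 was the only non-Paneth library with Xist counts above 8 and without Y-linked counts, so the sexes were not balanced between the groups. The sort held: Lyz1 and the defensin genes took at most 0.139% of the counts of a non-Paneth library and at least 37.4% of those of a Paneth library, and Epcam, the surface protein of epithelial cells, was at 1460 to 1797 CPM in WT and 1200 to 1261 CPM in GRKO.

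Nr3c1 (ENSMUSG00000024431, chromosome 18, 39543598 to 39652474, minus strand, GRCm39) was at 110, 126 and 131 CPM in WT and at 20.05, 13.1 and 24.5 CPM in GRKO non-Paneth cells. It was lower in each GRKO library than in each WT library, by 6.38-fold (log2 fold change −2.67 ± 0.30, adjusted p = 6.66e-05). In Paneth cells the fall was 2.31 on the log2 scale, and the difference between the sorts did not pass the test (adjusted p = 0.593). Reads of Nr3c1 remained in every GRKO library, 312 to 569 counts. Nr3c2, the mineralocorticoid receptor, which binds the same hormones, fell by 0.52 (adjusted p = 0.025). With the libraries scaled by their totals alone Nr3c2 gave −0.235 and did not pass (adjusted p = 0.342).

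In all, 4869 genes, 37.3% of those tested, differed between GRKO and WT non-Paneth cells. Of them 2283 (17.5% of the genes tested) were higher and 2586 (19.8%) were lower in GRKO, and these shares are the background against which each list below is read. No such share of all genes was counted for libraries that do not overlap, so lack of overlap is given as a description only. The genes ranked for the largest changes below, abundant, protein-coding and without overlap, numbered 1800 higher and 2069 lower in GRKO. Lack of overlap was therefore common and does not by itself set a list apart. Large changes were mostly losses, with 1215 genes lower and 341 higher by more than 1 on the log2 scale. The balance of the calls depended on the scaling: 46.9% of the calls were higher with TMM, 40.7% with DESeq2 and 74.6% when the libraries were scaled by their totals alone, which moved the median of all genes from 0.02 to 0.31. The genes with the largest rises among abundant genes included, in order, Alox5, Pik3cg, Plcb2, Dclk1, Pik3r5, Sh2d7, Pygl, Pou2f3, Avil, Spib and Rgs13, of which 7 belong to the list of tuft cell genes. Fgf15, Ubd, Fosb, Plb1, Nlrp9b, Stab1, Slc2a7, Akr1b7, Slc47a1, Sgk1, Atf3 and Otop3 had the largest falls.

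Sgk1 (ENSMUSG00000019970, chromosome 10, 21758083 to 21875802, plus strand, GRCm39), a kinase that regulates ion transport and a classical GR target, was at 67.2, 144 and 79.3 CPM in WT and at 9.14, 12 and 17.4 CPM in GRKO. Every GRKO value lay below every WT value (−2.91 ± 0.32, adjusted p = 7.37e-05). Among 16 target genes matched to promoter windows of RefSeq (build GRCm38.p6, 250 bases before to 50 bases after each start), Sgk1 was the only gene whose window held the letters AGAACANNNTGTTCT, the palindrome that GR dimers bind. It is palindromic, so both strands read alike. These letters occurred in 3 of 32851 windows of all genes and in 1 of 12689 windows of the genes tested. With up to 2 mismatches the share was 1.84% of all windows and 8.0% of the windows of GR targets, both of the latter from Sgk1. The 250 bases upstream of the Sgk1 start that carries the match, on the plus strand at chr10:21993640-21993889 (GRCm38.p6), are shown with the match in capitals, because it is the only exact match among the promoters of the genes tested.
Sgk1 promoter: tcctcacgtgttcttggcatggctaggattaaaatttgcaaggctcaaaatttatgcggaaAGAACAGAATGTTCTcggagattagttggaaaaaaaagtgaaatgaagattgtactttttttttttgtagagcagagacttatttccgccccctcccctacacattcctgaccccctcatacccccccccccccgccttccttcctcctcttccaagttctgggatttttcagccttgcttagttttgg

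The other known GR targets did not move as a block. Of 18 tested from a list of 20, 6 fell and 4 rose, with a median log2 fold change of 0.12 beside 0.02 over all genes. Dusp1, a phosphatase that switches off MAP kinases, went from 24.6, 15.5 and 11.5 CPM to 2.19, 1.72 and 4.70 CPM (−2.57 ± 0.59, adjusted p = 0.0079). Angptl4, an inhibitor of lipoprotein lipase, fell by 1.99, Errfi1, an inhibitor of the EGF receptor, by 1.25, and Tsc22d3, which encodes the anti-inflammatory protein GILZ, by 0.85. Nfkbia, the inhibitor of NF-κB, fell by 0.54, but gave −0.256 under library totals and did not pass there (adjusted p = 0.322). Fkbp5 and Per1, which many tissues induce in response to glucocorticoids, gave 0.11 ± 0.19 and 0.07 ± 0.22 and had overlapping libraries. Mt1, a metallothionein that binds zinc, rose instead, from 59.3, 50.7 and 48.3 CPM to 152, 164 and 217 CPM (1.75 ± 0.18, adjusted p = 1.0e-05), and Cdkn1c, Lpin1 and Glul rose by 1.26, 0.88 and 0.37. The count of rising targets was 2 rather than 4 without WT replicate 3, GRKO replicate 1 or GRKO replicate 2.

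**Figure D1:**
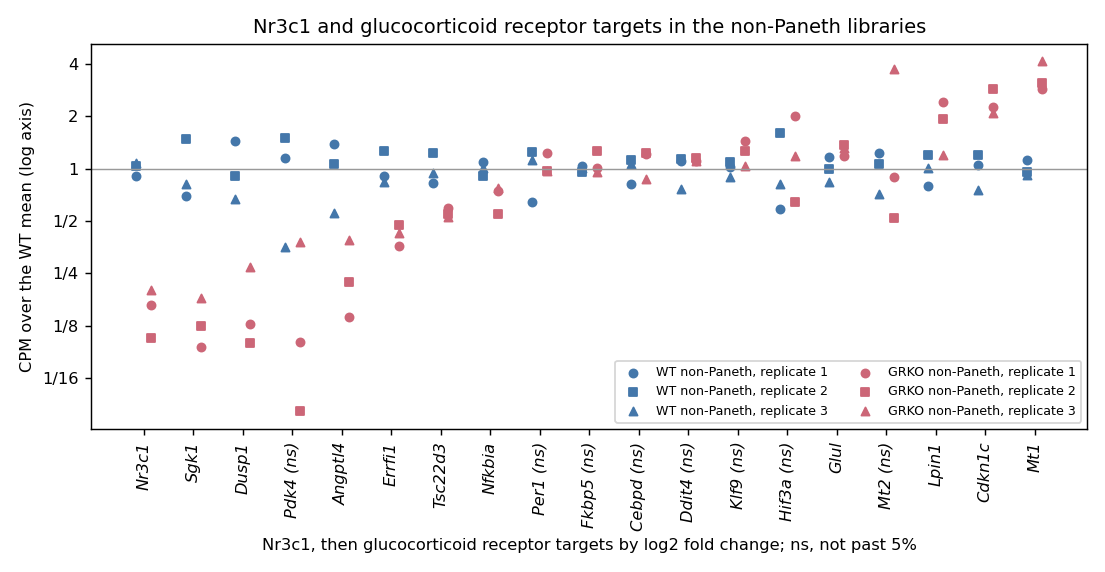
CPM divided by the WT mean (log axis) of Nr3c1 and of 18 GR target genes in each of the 6 non-Paneth libraries, WT in blue and GRKO in red, with a marker shape for each replicate and ns for genes that did not pass the 5% threshold. Nr3c1, Sgk1, Dusp1 and Angptl4 lie lower in all 3 GRKO libraries, Fkbp5 and Per1 overlap, and Mt1, at 152 to 217 CPM in GRKO, lies higher.

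The clearest gain was in genes of tuft cells, rare chemosensory cells that taste succinate and other luminal compounds through a Trpm5-dependent cascade and release interleukin 25, eicosanoids and acetylcholine. Of 31 listed genes 30 were tested, all 30 had a positive fold change, and 24 (80.0%, beside 17.5% of all genes) rose. For these 24 the libraries of the genotypes did not overlap. The list's median log2 fold change was 4.57, and it was also 4.57 with the gene that had no WT count set to its lower bound. The summed level of the list was 41.1, 60.9 and 41.9 CPM in WT and 565, 798 and 206 CPM in GRKO. GRKO replicate 3 had the lowest and replicate 2 the highest level in 23 of the 24 genes, so the mutant libraries differed among themselves in the size of the gain for the list as a whole. Leaving out any 1 library left between 22 and 26 calls.

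Dclk1 (ENSMUSG00000027797, chromosome 3, 55149618 to 55446493, plus strand, GRCm39), the microtubule-associated kinase by which tuft cells are usually recognised, was at 0.446, 3.02 and 0.642 CPM in WT and at 63.1, 90.7 and 20.9 CPM in GRKO. The rise was 42.1-fold (5.40 ± 0.96, adjusted p = 0.00284). Pou2f3 (ENSMUSG00000032015, chromosome 9, 43035228 to 43121666, minus strand), the transcription factor on which the tuft lineage depends, went from 0.0637, 0.465 and 0.374 CPM to 10.3, 15.5 and 5.82 CPM (5.05 ± 0.70, adjusted p = 0.000468). Gfi1b, a zinc finger repressor of tuft cells, had no count in any WT library and 16 to 56 counts in each GRKO library. Against a floor of 3 counts over the WT group its level was at least 23.9-fold higher. Hmx3 and Hmx2, a neighbouring pair of homeobox genes outside the tuft list, followed the same pattern. Hmx3 had 0 WT counts and was at least 48.0-fold higher, and Hmx2 had 2 WT counts in all against 172 in GRKO. Spib, an ETS factor, rose by 4.81.

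Genes of the chemosensory cascade rose in part. Trpm5, the cation channel at its end, went from 1.59, 3.20 and 4.06 CPM to 54.9, 81.0 and 20.1 CPM (4.12 ± 0.67, adjusted p = 0.0016), and Plcb2, the phospholipase upstream of it, rose by 5.51 (adjusted p = 0.00138). Gng13, a G protein subunit of taste cells, had 2 counts over the WT libraries and 77 over the GRKO libraries, and Rgs13, a regulator of G protein signalling, rose by 4.77. Gnat3 (gustducin) had 1 count in WT and 21 in GRKO, and with the sweet and umami receptor subunit Tas1r3 (0.65 ± 0.47, adjusted p = 0.30) did not pass the test. Sucnr1, the succinate receptor, was at 0.0637, 0.291 and 0 CPM in WT and at 0.699, 2.10 and 0.302 CPM in GRKO, and this difference also missed the threshold (adjusted p = 0.13).

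The enzymes of eicosanoid synthesis, which make the leukotrienes and prostaglandins that tuft cells release, gave some of the largest values. Alox5, the 5-lipoxygenase, went from 0.255, 0.291 and 0.214 CPM to 20.1, 27.9 and 5.73 CPM (6.11 ± 1.12, adjusted p = 0.00317). Its activating protein Alox5ap rose by 4.73, the cyclooxygenase Ptgs1 by 3.72 and the prostaglandin D synthase Hpgds by 4.78, whereas Ltc4s, the leukotriene C4 synthase, gave 1.18 ± 0.52 with overlapping libraries. Chat, which makes acetylcholine, had 1 WT count and 61 GRKO counts. The signalling genes that tuft cells share with blood cells moved with them: the PI3-kinase pair Pik3cg and Pik3r5 rose by 5.55 and 5.28, and Vav1 and Inpp5d by 2.56 and 4.56. Il17rb, a subunit of the receptor for interleukin 25, gave 0.83 ± 0.51 and did not pass.

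Kctd12, an auxiliary subunit of GABA-B receptors, was among the tuft genes with the highest level in GRKO. It went from 7.96, 13.0 and 7.01 CPM to 111, 142 and 40.6 CPM (3.39 ± 0.71, adjusted p = 0.0059). The octamer ATGCAAAT, the motif bound by POU factors such as Pou2f3, was searched on both strands of the promoter windows. It stood in 3 of the 28 windows of the 25 tuft genes that matched (10.7%), those of Hpgds, Kctd12 and Sucnr1, in 1.74% of all windows and in 1.40% of the windows of genes tested. The match is a description of letters only. The Kctd12 window, on the minus strand at chr14:102982638-102982887 (GRCm38.p6), is shown with the octamer in capitals as the example with the highest GRKO level of the 3.
Kctd12 promoter: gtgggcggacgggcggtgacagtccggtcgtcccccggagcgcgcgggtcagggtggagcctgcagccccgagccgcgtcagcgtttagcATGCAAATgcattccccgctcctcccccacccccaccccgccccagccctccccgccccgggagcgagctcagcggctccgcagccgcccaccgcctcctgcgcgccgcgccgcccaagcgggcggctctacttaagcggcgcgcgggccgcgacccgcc

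**Figure D2:**
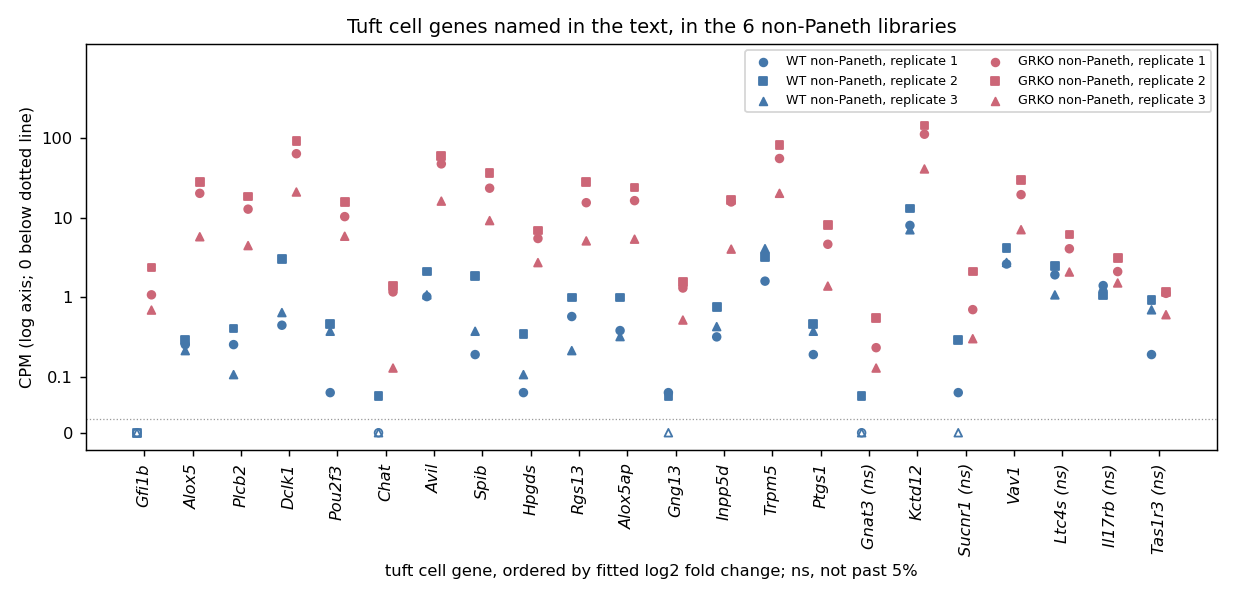
CPM (log axis, with 0 drawn under the dotted line) of the 22 tuft cell genes named in the text in the 6 non-Paneth libraries, WT in blue and GRKO in red, ordered by fitted fold change, with ns for genes that did not pass the 5% threshold. GRKO replicate 2 is highest and replicate 3 lowest for nearly all genes, and the order of Gfi1b rests on a fitted value with no WT count behind it.

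CD24, which the Paneth sort selects together with cKIT, is also known on tuft cells, so the RNA of both was read beside this result. Cd24a was at 119, 121 and 115 CPM in WT and 295, 404 and 244 CPM in GRKO non-Paneth cells, and Kit at 11.5, 11.2 and 7.65 CPM and 31.4, 41.7 and 15.4 CPM. Within the GRKO libraries both followed the order of the tuft genes. The Paneth sort, which selects CD24+ cKIT+ cells, held summed tuft levels of 471, 922 and 1272 CPM in WT and 2529, 3319 and 1159 CPM in GRKO. There the list's median was 1.38, and the genotype effect was larger in non-Paneth than in Paneth cells for 10 of the 30 genes, Pou2f3, Trpm5, Plcb2 and Rgs13 among them (18.7% of all genes differed between the sorts in either direction). For Dclk1 the difference was 3.89 ± 1.19 and missed the threshold (adjusted p = 0.054). The part that the gate takes in the rise was not tested, and how the non-Paneth cells were gated is not stated in the labels or methods. Ptprc, the gene of the leukocyte antigen CD45, was at 0.318, 0.407 and 0.160 CPM in WT and 3.31, 6.08 and 0.302 CPM in GRKO and did not pass (adjusted p = 0.12), while the 24 immune markers summed to 13.4, 22.04 and 11.7 CPM in WT and 9.09, 7.64 and 2.42 CPM in GRKO. Of the 24, 18 were under the filter on low counts, and Cd68 and Itgae fell by 1.57 and 2.05. Of 16 stromal, endothelial and red blood cell genes 2 were tested, 9 had no count in any WT library and 10 none in any GRKO library, and Vim rose by 1.21.

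Genes of enteroendocrine cells, the hormone-secreting cells of the gut, changed in part. Of 26 genes 13 rose and none fell, with a median of 0.87. Sst (ENSMUSG00000004366, chromosome 16, 23707321 to 23711733, minus strand, GRCm39), which encodes somatostatin, an inhibitor of hormone and acid secretion, went from 0.891, 4.13 and 3.42 CPM to 33.1, 35.9 and 41.5 CPM, a rise of 12.9-fold (3.69 ± 0.45, adjusted p = 0.000173). The 3 GRKO libraries were close to each other and far above WT. In the Paneth sort Sst went the other way in value, from 24.6, 31.1 and 12.2 CPM in WT to 8.10, 10.1 and 6.44 CPM in GRKO. That difference did not pass (−1.46 ± 0.43, adjusted p = 0.075). Whether cells with Sst passed from one sort to the other was not tested. The transcription factors of early endocrine commitment rose as well: Neurog3, the factor that starts the lineage, went from 1.72, 1.34 and 1.23 CPM to 4.66, 6.33 and 7.37 CPM (2.10 ± 0.44, adjusted p = 0.0020), and Isl1, Nkx2-2, Insm1 and Rfx6 rose by 2.39, 1.56, 1.53 and 1.28. The hormone genes Gip and Ghrl, for the incretin GIP and for ghrelin, rose by 2.52 and 2.49. Both calls were lost under 6 of 16 alternatives, leaving out any 1 GRKO library among them (adjusted p up to 0.0892 and 0.112). That of Rfx6 was lost under 5.

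The genes of other mature endocrine cells gave no such change. Chga and Chgb, which encode the granule proteins of most endocrine cells, gave −0.12 ± 0.30 and 0.40 ± 0.41, and Tph1, the enzyme of serotonin synthesis, 0.06 ± 0.26. Libraries overlapped for these and for Gcg, Cck, Sct, Pyy and Tac1. The summed level of the list overlapped too, at 717, 525 and 276 CPM in WT and 540, 803 and 694 CPM in GRKO. The count of 13 was 7 without WT replicate 2 or GRKO replicate 2, and 8 without WT replicate 3 or GRKO replicate 3. Sst was the gene of this list whose effect differed most from that in Paneth cells (5.15 ± 0.62, adjusted p = 0.000646). In all 5 of the 26 differed, each with the more positive effect in non-Paneth cells, beside 949 of all 13057 genes.

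Goblet and Paneth cell genes showed no common direction. Of 18 goblet genes 3 rose and 2 fell, with a median of 0.15. Muc2, the main secreted mucin, was at 838, 1471 and 690 CPM in WT and at 433, 407 and 434 CPM in GRKO (−1.24 ± 0.32, adjusted p = 0.0099), and Tff3, a trefoil peptide that goblet cells secrete with it, fell by 1.03. Foxa3, a transcription factor of goblet cells, and Creb3l1 rose by 0.65 and 0.66, whereas Spdef, which drives their maturation, gave 0.51 ± 0.30. The 3 rising genes were 1 without WT replicate 1 or WT replicate 3 and 0 without GRKO replicate 2. Of 12 Paneth genes only Ang4, an antimicrobial ribonuclease, changed, from 16.4, 38.2 and 36.1 CPM to 172, 228 and 63.0 CPM (2.35 ± 0.50, adjusted p = 0.0035). Lyz1, the lysozyme of Paneth cells, was at 102, 333 and 107 CPM in WT and at 177, 185 and 152 CPM in GRKO, overlapping between the genotypes and far below the 120200 to 233200 CPM of the Paneth libraries. WT replicate 2 held the highest level of most defensin genes, and without it 7 of the 12 genes were called higher.

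The genes of crypt base stem cells were higher in the non-Paneth sort. Of 16 stem cell genes 12 rose and none fell, by 0.44 to 1.06, with a median of 0.54. The list summed to 7476, 5732 and 5887 CPM in WT and to 8217, 8285 and 9565 CPM in GRKO. In the Paneth sort the sums went the other way, 11810, 11180 and 11020 CPM in WT and 7710, 6709 and 9031 CPM in GRKO. No gene of the list passed there. Lgr5, the receptor for R-spondins that marks the crypt base stem cells, was at 37.4, 37.5 and 32.0 CPM in WT and at 49.5, 47.2 and 67.1 CPM in GRKO (0.62 ± 0.18, adjusted p = 0.014). Ascl2, the transcription factor that maintains them, rose by 1.06, Smoc2 by 0.56 and Lrig1, a brake on EGF receptor signalling, by 0.68. Olfm4, one of the most abundant genes of GRKO cells, was at 4367, 3183 and 3368 CPM in WT and 4070, 4605 and 5365 CPM in GRKO, and its difference did not pass (0.36 ± 0.19, adjusted p = 0.15). The count of 12 was 6 without WT replicate 2 and 7 without WT replicate 3 or GRKO replicate 3. Of the Notch pathway, which holds progenitors in an absorptive fate, 6 of 11 genes rose, including the receptor Notch1 (0.46), the target Hes1 (0.48) and the modifier Lfng (0.97), while the secretory factor Atoh1 gave 0.16 ± 0.29. These 6 were 3 when any library but GRKO replicate 2 was left out.

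Genes of division moved more evenly. All 20 mitosis genes rose, with no overlap, by 0.41 to 0.95 (median 0.67), and 17 of 22 DNA replication genes by 0.39 to 0.94 (median 0.68). Top2a, the topoisomerase that untangles replicated chromosomes, was at 244, 255 and 289 CPM in WT and at 461, 481 and 462 CPM in GRKO (0.83 ± 0.13, adjusted p = 0.00018). Plk1, the kinase that drives mitotic entry, rose by 0.95 and Mki67, a marker of cycling cells, by 0.71. The subunits of the replicative helicase, Mcm2 to Mcm7, rose by 0.61 to 0.94. The growth programme that accompanies division rose too: 24 of 26 ribosome biogenesis genes by 0.38 to 1.03, among them Ncl (nucleolin, 0.82) and Polr1a, the large subunit of RNA polymerase I (0.96), and Myc by 0.51. The cytosolic ribosomal proteins themselves gave 5 calls of 78, a count that was 35 when library totals were used and 0 to 2 with any 1 library left out. The amplitude of these gains was small beside the losses that follow.

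**Figure D3:**
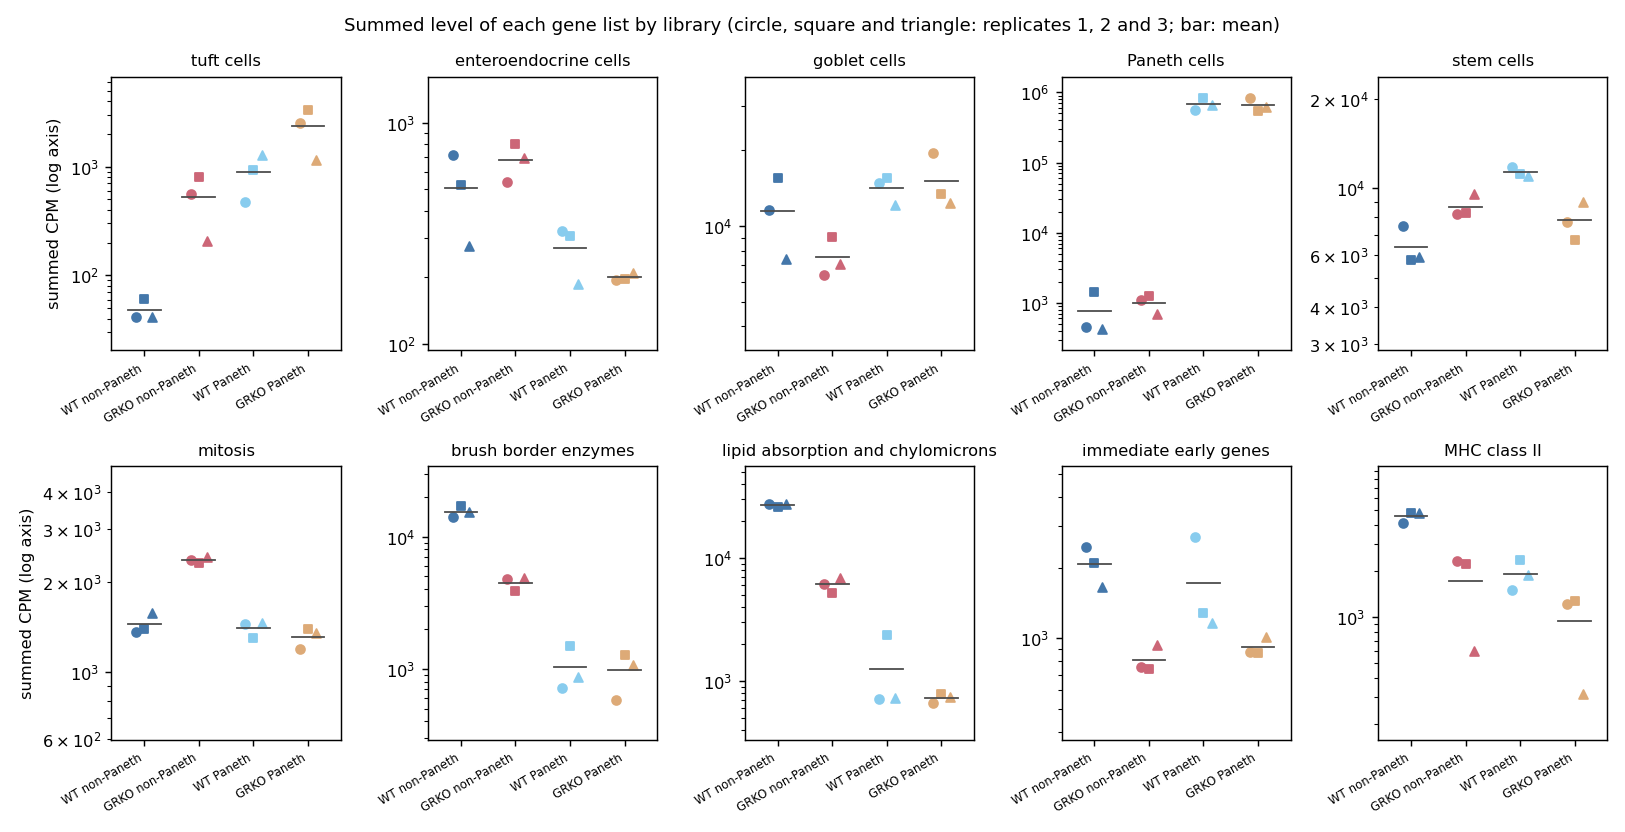
Summed CPM (log axis) of 10 gene lists in each of the 12 libraries, grouped by genotype and sort, with marker shapes for replicates and a bar for the mean. In the non-Paneth sorts the tuft list lies at 206 to 798 CPM in GRKO and 41.1 to 60.9 CPM in WT, mitosis lies higher in GRKO, and brush border, lipid absorption, immediate early and MHC class II genes lie lower, while enteroendocrine, goblet and Paneth genes overlap.

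The genes of absorptive enterocytes were lower. Of 13 brush border enzymes, which split sugars and peptides at the cell surface, all were lower in each GRKO library than in each WT library, with a median of −1.91, and 8 passed the test. Anpep, aminopeptidase N, went from 3418, 5386 and 3895 CPM to 1101, 972 and 1334 CPM (−1.90 ± 0.42, adjusted p = 0.0052). Dpp4, the peptidase that inactivates incretins, fell by 1.49, and Treh (trehalase) and Mme (neprilysin) by 2.19 and 2.14. Lct, lactase, was at 1515, 1385 and 1422 CPM in WT and at 336, 190 and 370 CPM in GRKO, and missed the threshold (−2.27 ± 0.92, adjusted p = 0.086), as did Sis, sucrase-isomaltase, at 1636, 1540 and 2266 CPM against 677, 426 and 343 CPM. The test takes its spread from all 12 libraries. A fit on the 6 non-Paneth libraries alone called all 13, and the count was 5 without GRKO replicate 1.

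Genes of brush border structure followed, with 13 of 14 microvillus genes lower and a median of −1.51. Vil1, villin, the actin bundler of microvilli and the gene whose promoter names the deletion, was at 2406, 2558 and 2467 CPM in WT and at 915, 844 and 869 CPM in GRKO (−1.50 ± 0.16, adjusted p = 1.6e-05). Cdhr2 and Cdhr5, the protocadherins that tie microvilli together, fell by 1.87 and 1.72, and Espn (espin) by 1.97. For 12 of the 14 the effect was the more negative in non-Paneth cells (18.7% of all genes differed between the sorts in either direction), and in Paneth cells the list's median was 0.34.

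Of 19 genes that handle dietary fat 15 fell and none rose, with a median of −1.93. Fabp2, the intestinal fatty acid binding protein, went from 6404, 5673 and 4060 CPM to 718, 966 and 1575 CPM (−2.31 ± 0.63, adjusted p = 0.0186). Uptake (Cd36, 2.06; Slc27a4, 1.93), triglyceride synthesis (Dgat1, 1.49; Mogat2, 1.87) and chylomicron assembly (Apob, 2.04; Mttp, 1.56) all contained genes that fell, the numbers being the fall on the log2 scale. Mogat2 lost its call under 9 of 16 alternatives, the loss of any 1 library among them (adjusted p up to 0.104). Npc1l1, which takes up cholesterol, fell by 1.86, and the exporters Abcg5 and Abcg8 by 2.12 and 2.11. Apoa1, the main protein of high density lipoprotein and one of the most abundant genes of WT cells, was at 8963, 8031 and 7235 CPM in WT and at 1597, 1324 and 1602 CPM in GRKO, and did not pass (−2.42 ± 0.94, adjusted p = 0.0749) although its libraries did not overlap.

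Of 19 transporters of other nutrients 14 fell and 2 rose (median −1.77). The sodium-glucose carrier Slc5a1 was at 998, 1127 and 1384 CPM in WT and at 480, 289 and 311 CPM in GRKO (−1.70 ± 0.24, adjusted p = 0.00015), Slc2a5, which takes up fructose, fell by 1.77 and Slc15a1, which takes up dipeptides, by 2.19, a call that was lost under 9 of 16 alternatives, again without any 1 library (adjusted p up to 0.131). Slc16a1, which carries lactate and short-chain fatty acids, rose by 0.58. Guca2b, the peptide uroguanylin that controls salt secretion, fell from 699, 460 and 380 CPM to 95.4, 84.7 and 97.5 CPM (−2.47 ± 0.20, adjusted p = 3.1e-06). Its receptor Gucy2c gave −0.32 ± 0.14 and missed the threshold.

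Fgf15 (ENSMUSG00000031073, chromosome 7, 144450268 to 144454690, plus strand, GRCm39), the ileal hormone that restrains bile acid synthesis in the liver, was at 9.74, 32.2 and 2.35 CPM in WT and at 1.31, 0.042 and 0.345 CPM in GRKO. The libraries did not overlap, and the difference was −4.72 ± 1.22 (adjusted p = 0.015), but the WT values themselves were far apart. Over 16 alternatives the value ran from −6.26 to −3.48 (the latter without WT replicate 2, the former without GRKO replicate 1), and the call was lost at a false discovery rate of 1%, in the fit on the 6 non-Paneth libraries (adjusted p = 0.0604), without GRKO replicate 2 (0.0509) and without GRKO replicate 3 (0.0545). In the rest of the ileal bile acid list Slc51b, a subunit of the basolateral exporter, fell by 2.26 and the bile acid receptor Nr1h4 (FXR) by 0.65. Under library totals Nr1h4 gave −0.361 and did not pass (adjusted p = 0.15). Fabp6, the ileal bile acid binding protein, was at 1134, 1360 and 419 CPM in WT and at 112, 404 and 128 CPM in GRKO and did not pass (−2.18 ± 1.35, adjusted p = 0.24), and Slc10a2, the apical importer, overlapped. The labels do not say which stretch of the small intestine went into each sort.

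Of 21 genes that clear drugs and xenobiotics 20 fell (median −1.93, 95.2% beside 19.8% of all genes). Cyp3a25, a cytochrome P450, went from 129, 82.3 and 157 CPM to 22.6, 11.9 and 18.2 CPM (−2.81 ± 0.29, adjusted p = 4.4e-05), the nuclear receptors Nr1i3 (CAR) and Nr1i2 (PXR), which induce such enzymes, fell by 1.93 and 0.82, and the exporters Abcc2 and Abcg2 by 1.96 and 1.23. All 9 genes of gluconeogenesis and fructose metabolism fell as well, by 0.78 to 2.31. Pck1 and G6pc1 encode the enzymes at the start and end of glucose synthesis and are known GR targets in liver. G6pc1 was at 58.3, 52.4 and 35.2 CPM in WT and at 15.2, 6.12 and 11.3 CPM in GRKO (−2.16 ± 0.52, adjusted p = 0.0096), and Pck1 fell by 2.31.

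Genes of energy metabolism did not share a direction. Of 16 fatty acid oxidation genes 9 fell and none rose, with the coactivator Ppargc1a lower by 1.47. Fatty acid synthesis went the other way: 6 of 9 genes rose, including Fasn from 116, 129 and 124 CPM to 228, 199 and 192 CPM (0.75 ± 0.17, adjusted p = 0.0031) and the desaturase Fads1 by 1.07. The 7 tested genes of the mitochondrial genome fell by 1.24 to 1.80. mt-Co1, a subunit of cytochrome oxidase and the most abundant gene of both groups, was at 25544, 25760 and 23191 CPM in WT and at 8739, 9094 and 8730 CPM in GRKO (−1.49 ± 0.26, adjusted p = 0.000564). Of 43 nuclear genes of the same complexes 11 fell, by 0.38 to 0.70, but the median of −0.25 became 0.04 and the count 1 when libraries were scaled by totals, and the count was 2 without WT replicate 1 or GRKO replicate 2 and 5 without GRKO replicate 1 or 3. The glycolysis list had 6 lower and 3 higher genes, and its median of −0.13 became 0.16 under library totals, where none was called lower.

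**Figure D4:**
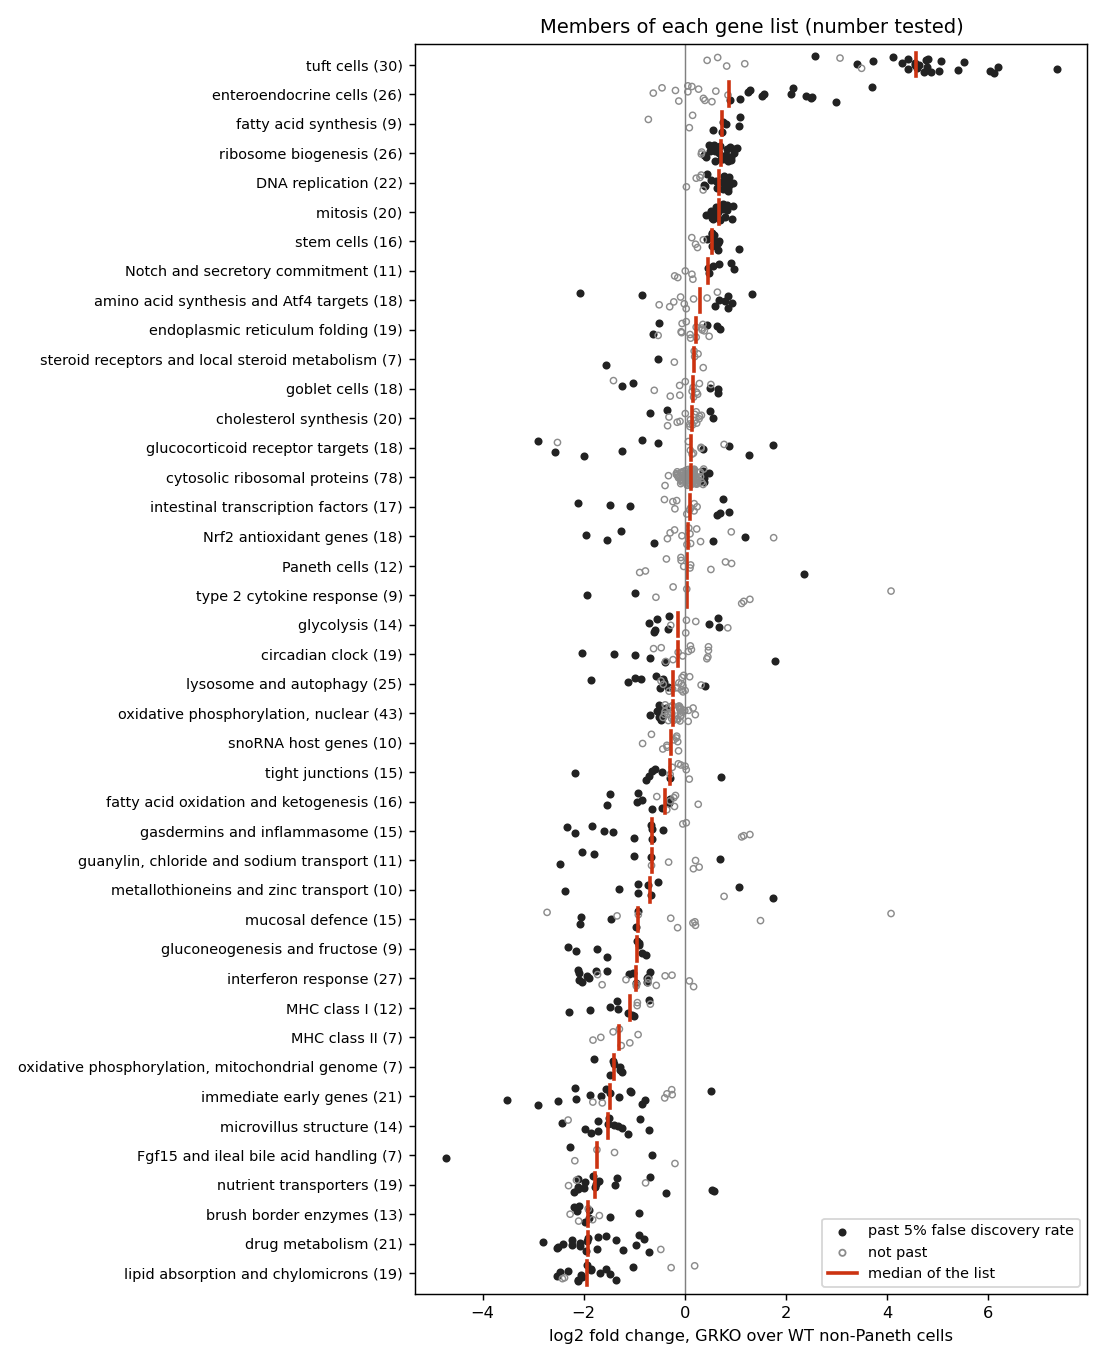
Log2 fold change (GRKO over WT, non-Paneth cells) of each tested member of the gene lists, filled where the gene passed the 5% threshold and open where it did not, with a red bar at each median and the number tested in brackets. The tuft list lies at a median of 4.57 and the division lists just above 0, whereas lipid absorption, drug metabolism and brush border genes have medians of −1.93, −1.93 and −1.91. Values are from TMM scaling, and the medians of glycolysis, circadian clock, lysosome and nuclear oxidative phosphorylation genes, below 0 here, lie above 0 when library totals are used.

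Of 17 transcription factors of the epithelium 4 rose and 3 fell, and 7 rose under library totals. Maf, an enterocyte factor, was at 138, 175 and 137 CPM in WT and at 33.5, 30.1 and 40.6 CPM in GRKO (−2.11 ± 0.44, adjusted p = 0.0050), Klf4, which acts in cells leaving the cycle, fell by 1.49 and Hnf4g by 1.09. Sox9, a factor of the crypt base, rose by 0.75, Foxa1 and Foxa2, used by secretory cells, by 0.68 and 0.88, and Cdx1 by 0.62. Cdx2 and Hnf4a, which specify the intestinal epithelium as such, gave 0.04 ± 0.10 and 0.24 ± 0.14.

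Immediate early genes, which cells switch on within minutes of a stimulus, were lower in 14 of 21 cases, with Myc the only member that rose. Fos went from 478, 369 and 285 CPM to 46.6, 39.7 and 112 CPM (−2.51 ± 0.64, adjusted p = 0.015), and Fosb, Atf3, Zfp36 and Jun fell by 3.52, 2.91, 2.17 and 1.67. In the Paneth sort the list's median was −0.75 against −1.49 here. Of 19 circadian clock genes 5 fell and Ciart rose. Npas2, a partner of Bmal1, went from 44.4, 52.8 and 45.8 CPM to 18.9, 17.5 and 17.4 CPM (−1.41 ± 0.15, adjusted p = 1.3e-05) and Nr1d1, the repressor REV-ERBα, fell by 2.04. The core genes Bmal1 and Clock gave −0.38 ± 0.15 and −0.24 ± 0.16, and the list's median of −0.13 turned to 0.15 under library totals. The 5 falling genes were 3 under library totals and without WT replicate 1, WT replicate 2 or GRKO replicate 2.

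Zinc handling split by direction. Of 10 genes 7 fell, and the rise of Mt1 given above was joined by that of the importer Slc39a10 (1.06). Slc30a10, a manganese exporter of the zinc transporter family, was at 34.4, 41.7 and 23.2 CPM in WT and at 9.23, 4.74 and 5.26 CPM in GRKO (−2.37 ± 0.37, adjusted p = 0.00043), Slc39a4, the main importer of dietary zinc, fell by 0.94 and Mtf1, the metal-sensing transcription factor, by 0.67. Under library totals Mtf1 gave −0.377 and did not pass (adjusted p = 0.166). The metal response element TGCGCNC, searched on both strands, stood in 5 of 10 promoter windows of the list, beside 25.9% of the windows of genes tested. Among tight junction genes Cldn4, a sealing claudin of mature cells, fell from 71.4, 82.9 and 103 CPM to 19.1, 20.7 and 16.9 CPM (−2.18 ± 0.15, adjusted p = 7.6e-07), and Cldn2, the cation channel-forming claudin of crypts, rose by 0.71. The list had 7 lower genes of 15, a count of 3 under library totals.

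Immune genes of the epithelium were mostly lower. Of 12 genes of MHC class I presentation 9 fell, by 0.70 to 2.29, including B2m, the invariant light chain, from 1076, 1478 and 1509 CPM to 694, 686 and 643 CPM (−1.01 ± 0.20, adjusted p = 0.0011). Of 27 interferon response genes 15 fell and none rose (median −0.96). Irf7, a transcription factor of the antiviral response, went from 140, 195 and 137 CPM to 43.2, 42.0 and 41.0 CPM (−1.90 ± 0.35, adjusted p = 0.0021), and Stat2 and Ifit1 fell by 1.55 and 2.03. For 9 of the 27, these 3 included, the effect was lower in non-Paneth than in Paneth cells, beside 1496 of all 13057 genes. Ubd, a ubiquitin-like protein that interferon γ induces, had one of the largest falls of all abundant genes, from 13.5, 37.6 and 86.5 CPM to 4.48, 4.53 and 1.03 CPM (−3.78 ± 0.89, adjusted p = 0.0102).

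MHC class II genes were lower in every GRKO library but passed in no case. Their summed level was 4137, 4814 and 4777 CPM in WT and 2329, 2215 and 596 CPM in GRKO, with GRKO replicate 3 far below the other two. Cd74, the invariant chain, gave −1.26 ± 0.55 (adjusted p = 0.11). With an unadjusted p under 0.05 3 of the 7 passed, and DESeq2 called 2.

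Genes of pyroptosis, the lytic death that gasdermin pores bring about, fell in 10 of 15 cases. Gsdmd (ENSMUSG00000022575, chromosome 15, 75733974 to 75739257, plus strand, GRCm39), the pore-forming protein cleaved by inflammatory caspases, was at 275, 259 and 234 CPM in WT and at 61.3, 50.05 and 58.4 CPM in GRKO (−2.18 ± 0.15, adjusted p = 9.7e-07). Naip5 and Naip6, sensors of bacterial flagellin, fell by 2.34 and 1.83, Il18, the cytokine the caspases release, by 1.60 and, outside the list, Nlrp9b, an inflammasome sensor of the gut, by 3.11. Naip genes are near-identical copies, and reads that map to several genes are not counted, so their levels may be understated. The Gsdmc genes went the other way in value without passing: Gsdmc4 was at 44.9, 77.4 and 101 CPM in WT and at 272, 200 and 73.0 CPM in GRKO. Of the mucosal defence genes, 5 of 15 fell, among them the antibacterial lectin Reg3a (2.04) and the thymic-type chemokine Ccl25 (0.97), which attracts T cells to the small intestine, while Reg3b and Reg3g overlapped between the genotypes. Il33, an alarmin of type 2 immunity, was at 4.90, 7.45 and 8.56 CPM in WT and at 2.704, 1.17 and 1.60 CPM in GRKO (−1.94 ± 0.34, adjusted p = 0.00059), and Il4ra, which receives the signals of interleukins 4 and 13, fell by 0.98.

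Whether both sorts responded alike was asked by testing the difference between the genotype effects of the sorts. In Paneth cells 420 genes, 3.22%, differed between GRKO and WT, and for 2445 genes (18.7%) the genotype effect in non-Paneth cells differed from that in Paneth cells. The effect was the more positive in non-Paneth cells for 949 and the more negative for 1496. Without WT non-Paneth replicate 2 the total was 1562. Among the division lists, 18 of 20 mitosis genes, 19 of 22 DNA replication genes and 13 of 16 stem cell genes had the more positive effect in non-Paneth cells, and the list medians in Paneth cells were −0.09, −0.13 and −0.37. Of the cytosolic ribosomal proteins 51 of 78 had it too, with a median of 0.11 in non-Paneth and −0.66 in Paneth cells. Lipid absorption differed for 7 of 19 genes, drug metabolism for 7 of 21 and nutrient transport for 9 of 19, each time with the more negative effect in non-Paneth cells.

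The 5 genes with the most positive difference among abundant genes were Hmx3, Sst, Hmx2, Plcb2 and Rgs13, and the 5 with the most negative were Trim38, Ltb4r2, Gprc5a, Slc16a3 and Abcc2. Ltb4r2, a receptor for leukotriene B4, was at 9.80, 11.1 and 12 CPM in WT and at 3.54, 1.76 and 2.59 CPM in GRKO non-Paneth cells. In Paneth cells it rose at levels near 0, from 0.190, 0.371 and 0.118 CPM to 0.846, 0.882 and 1.61 CPM (log2 fold change 2.29 ± 0.55, adjusted p = 0.0448). The difference was −4.35 ± 0.60 (adjusted p = 0.000463). Abcc2, the exporter of conjugated drugs, had −1.96 ± 0.29 in non-Paneth and 1.19 in Paneth cells. Sgk1 fell in both sorts, by 2.91 and, in Paneth cells, by 1.78 (adjusted p = 0.0448). Fgf15 was near 0 in most Paneth libraries, at 0.0950, 2.10 and 0.118 CPM in WT and at 0.121, 0 and 0 CPM in GRKO, and did not pass there (adjusted p = 0.426). The difference between the sorts passed for neither gene.

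**Figure D5:**
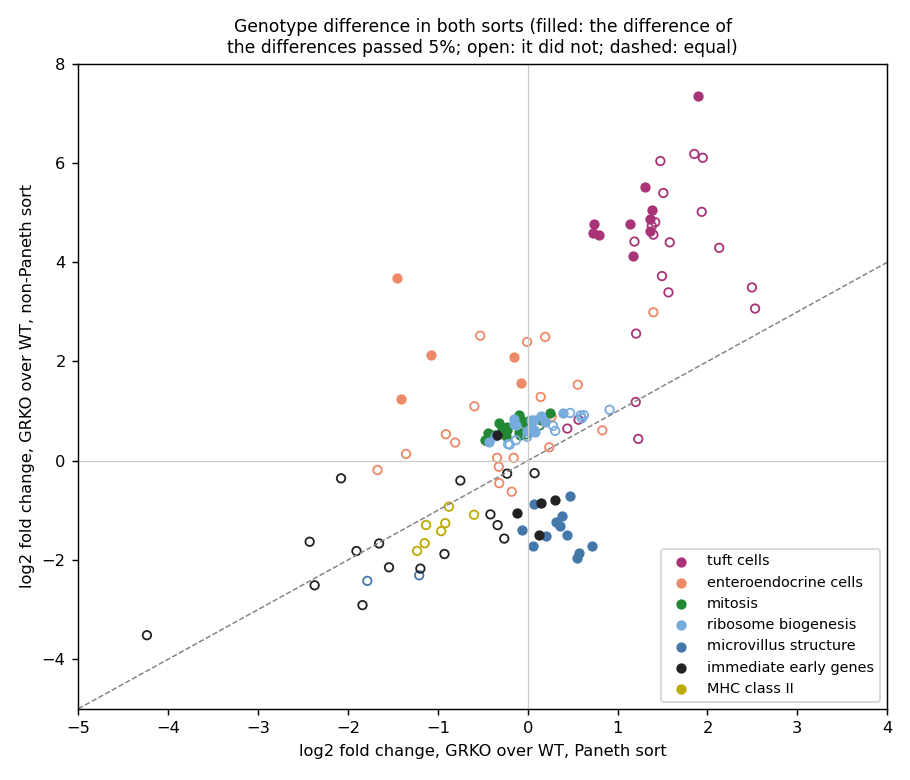
Log2 fold change (GRKO over WT) in Paneth cells on the x axis against that in non-Paneth cells on the y axis for members of 7 gene lists, 1 point a gene, filled where the 2 effects differed at the 5% threshold, with a dashed line of equality. Non-Paneth against Paneth medians are 4.57 against 1.38 for tuft genes, 0.67 against −0.09 for mitosis genes and −1.51 against 0.34 for microvillus genes. They are −1.49 against −0.75 for immediate early genes and −1.30 against −0.96 for MHC class II genes.

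The remaining lists gave mixed or small changes. Of 18 genes that Nrf2 induces against oxidative stress 4 fell and 2 rose, of 20 cholesterol synthesis genes 2 fell and 2 rose, and of 19 folding genes of the endoplasmic reticulum 2 fell and 3 rose, the last count being 10 under library totals and 0 without WT replicate 1, WT replicate 2, GRKO replicate 1 or GRKO replicate 2. Of 18 genes of amino acid synthesis and of the Atf4 response 7 rose, with the amino acid carrier Slc7a5 higher by 1.33 and the serine pathway enzyme Phgdh by 0.80, and 2 fell, with Trib3, a stress-induced pseudokinase, lower by 2.07. In the list of chloride, sodium and guanylin genes 5 of 11 fell and 1 rose, a count of 2 without WT replicate 2 and of 3 without GRKO replicate 2, without GRKO replicate 3 or under library totals. Of 25 lysosome and autophagy genes 9 fell and 1 rose, with 4 lower and a median of 0.05 instead of −0.24 under library totals. Of 7 steroid genes 2 fell, Nr3c2 and the oestradiol-inactivating enzyme Hsd17b2 (1.57), and of 9 type 2 genes the 2 named above. None of 10 snoRNA host genes (median −0.28, and 0.00 under library totals) and none of 4 Y-linked genes passed the edgeR or the DESeq2 test or had an unadjusted p under 0.05 (0 genes), though 2 of the snoRNA hosts were called in the fit on the 6 non-Paneth libraries.

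As a check of the scale, genes that are often taken as constant were read in the same fit. Of 9 such genes Actb and Gapdh fell by 0.83 and 0.58, 2 rose, Gusb among them by 0.75, and 5 did not pass, with a median of 0.06. Under library totals Gapdh gave −0.298 and did not pass (adjusted p = 0.118). Pigr, the receptor that carries IgA into the lumen, was among the 5 most abundant genes of WT and gave −0.28 ± 0.16. Eef1a1 and Dmbt1 were, with mt-Co1, the 3 leading genes of GRKO cells. Of these Eef1a1 gave 0.17 ± 0.18 and did not pass. Dmbt1 rose by 0.88 (adjusted p = 0.0119), a call lost under 3 of 16 alternatives, and mt-Co1 fell as given above.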

How the data were processed

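The authors deposited 1 table of raw read counts per Ensembl gene, 55414 genes by 12 libraries. Total RNA of sorted cells was made into stranded TruSeq libraries. Per the study's methods, single-end reads were aligned with STAR, which also counted them. The submitters' processing notes name Trimmomatic 0.39, STAR 2.7.10a, DESeq2 and build mm39. Reads that map to several genes are not counted this way, so genes with near-identical copies are understated.

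Counts were analysed with edgeR 4.0.16 in R 4.3.3: TMM scaling, filterByExpr by the 4 groups (13057 genes kept), 1 robust quasi-likelihood fit over all 12 libraries, and contrasts for the genotype effect in each sort and for their difference, with Benjamini-Hochberg adjustment at 5%. DESeq2 1.42.0, other scalings and filters, a length and GC trend (a spline fit in R), a replicate block, the 6 non-Paneth libraries alone and leaving out each library were the alternatives. The script was tested on simulated counts. Groups came from the titles and column headers, since the genotype field goes against them.

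The part of the series and the 47 gene lists (838 symbols, of which 775 were tested, 60 fell under the filter and 3 matched no single row) were chosen with earlier results of these data known. Single genes were named if they were Nr3c1, Dclk1 or Fgf15, list members, among the 12 largest changes in each direction (5 for the difference between sorts) of protein-coding genes with a mean of at least 10 CPM and no overlap, or among the 5 most abundant of a group; some that these rules select are not reported here. Genes at 0 in WT were given a floor of 3 counts over the group, which covers counting error only. Replicates of a group differed beyond sampling noise (chi-square per degree of freedom 13.4 to 29.4). Coordinates are from GENCODE vM39 on GRCm39, and promoter sequences from RefSeq on GRCm38.p6.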

Additional observations from a re-analysis of the deposited data

Results flagged for a closer look

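These results were set aside because the genotype effect in non-Paneth cells differed from that in Paneth cells by the test of the difference itself (edgeR, adjusted over 13057 genes). In all 2445 genes did so, and of the 196 genes named in the text 72, 33 with the more positive and 39 with the more negative effect in non-Paneth cells. Values are the log2 fold change in non-Paneth minus that in Paneth cells, and no cause was weighed.

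Among tuft genes the difference was 2.95 for Trpm5, 3.50 for Avil, 3.64 for Hpgds, 3.67 for Pou2f3, 3.85 for Gng13, 4.03 for Rgs13 and 4.21 for Plcb2. It was 3.98 for Pik3r5, 4.66 for Hmx2, 5.46 for Gfi1b and 6.97 for Hmx3, and the fitted values of the last 2 rest on no WT count. Among endocrine genes it was 1.63 for Nkx2-2, 2.25 for Neurog3 and 5.15 for Sst. Stem cell and Notch genes gave 0.57 for Lrig1, 0.77 for Lgr5, 0.78 for Smoc2, 0.86 for Notch1, 0.88 for Hes1, 0.96 for Lfng, 1.08 for Olfm4 and 1.44 for Ascl2. Genes of division and growth gave 0.70 for Plk1, 0.76 for Mcm7, 0.77 for Mcm2, 0.78 for Ncl, 0.85 for Myc, 0.92 for Top2a and Fads1, 1.08 for Phgdh and 1.10 for Slc7a5. Gusb (0.48) and Ciart (2.95) complete the positive side.

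On the negative side the brush border genes gave −1.12 for Dpp4, −1.93 for Vil1, −2.24 for Anpep, −2.43 for Cdhr2, −2.44 for Cdhr5 and −2.51 for Espn. Genes of absorption and transport gave −0.79 for Gucy2c, −1.07 for Slc39a4, −1.19 for Slc5a1, −1.34 for Dgat1, −1.54 for Abcg8, −1.62 for Abcg5, −1.67 for Mttp, −1.95 for Slc27a4, −1.96 for Slc2a5, −2.33 for Cldn4 and −2.74 for Guca2b. Metabolic genes gave −0.75 for Gapdh, −0.94 for Abcg2, −1.07 for Ppargc1a, −1.46 for Hsd17b2, −3.15 for Abcc2 and −3.32 for Slc16a3. Immune genes gave −1.37 for Il4ra, −1.70 for Gsdmd, −1.72 for Naip6, −1.79 for Stat2, −2.30 for Naip5, −2.42 for Irf7, −2.89 for Ifit1, −4.35 for Ltb4r2 and −4.46 for Trim38. Regulators gave −0.90 for Nr3c2, −1.22 for Mtf1, −1.33 for Errfi1, −1.61 for Klf4 and −1.76 for Npas2, and Actb and Gprc5a gave −1.06 and −3.85.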

How the results depend on the processing

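No value of a called gene named in the text changed direction under any alternative. Of 159 such genes 112 kept their call throughout and 47 lost it at least once, most often at a false discovery rate of 1% (42) or without GRKO replicate 2 (28). Of the 16 alternatives Hes1 lost its call under 10, Ciart, Glul, Mogat2 and Slc15a1 under 9, Cd68 under 8 and Otop3, Plb1 and Tff3 under 7. The cause of each change below was not tested unless the setting names it. The genes that differed between GRKO and WT non-Paneth cells numbered 4932 with DESeq2, 5767 in a fit on the 6 non-Paneth libraries, 5012 without a filter on low counts (a fit in which all 24077 genes took their spread from the common trend and not from their own libraries) and 5399 with a trend on gene length and GC content removed, against 4869, and 3002 at a false discovery rate of 1% (1281 higher, 1721 lower). Scaling by library totals gave 4345 higher and 1478 lower. Leaving out 1 library gave 3637 to 4264 in all, 1359 to 1597 higher and 2271 to 2667 lower, with the higher count at 1451 without WT replicate 1, 1359 without WT replicate 2, 1421 without GRKO replicate 1 and 1379 without GRKO replicate 2.

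The genes whose effect differed between the sorts numbered 955 at a false discovery rate of 1% (250 higher, 705 lower), and library totals gave 1836 higher and 751 lower. Leaving out 1 library gave 1562 to 2610 in all, 459 to 1028 higher and 1036 to 1698 lower, the lowest total without WT non-Paneth replicate 2.

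Replicate numbers did not pair the genotypes: the deviations of same-numbered WT and GRKO non-Paneth libraries correlated at −0.149, 0.195 and −0.0874. With the replicate number as a block the counts were 4991 and, for the difference between sorts, 2635. Same-numbered Paneth and non-Paneth libraries correlated at 0.466, 0.316 and 0.384 in WT, each higher than with any other number, and at −0.205, 0.186 and 0.463 in GRKO. The labels do not say that they share a mouse, and the test of the difference took them as separate. With genotype and number together as a block it called 2977 genes, 1171 higher and 1806 lower, against 2445. Depth limits the genes with few WT counts, whose fold changes have no upper bound.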
